A study of Mus musculus with 9 samples.

Results

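The genes described here are those of the aryl hydrocarbon receptor (AhR) complex and its classical targets, 9 genes chosen by name out of the 55401 in the table. They are the receptor gene Ahr, its partner Arnt, its repressor Ahrr, the chaperone genes Ptges3 and Hsp90ab1, and the target genes Tiparp, Cyp1a1, Cyp1b1 and Aldh3a1. Expression was measured by RNA-seq in RAW264.7 cells, a wild-type mouse macrophage line derived from a male tumour induced by Abelson murine leukemia virus. The cells received DMSO (the vehicle), LPS in DMSO (LPS), or LPS with skatole (LPS + Ska) for 24 h by the labels, while the methods text gives a longer treatment. Each group had 3 columns numbered 5, 6 and 7, all from a single cell line, so p-values measure only the spread between these columns. No group received skatole without LPS, so the response to skatole could be read only on top of LPS.

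AhR is a transcription factor of the bHLH-PAS family that waits in the cytosol, bound to Hsp90 and to the cochaperone p23, until a ligand binds. It then enters the nucleus, pairs with Arnt and binds a short DNA element, the xenobiotic response element, near genes of drug metabolism such as Cyp1a1. Skatole is an indole made from tryptophan by gut bacteria, and indoles of this kind are known ligands of the receptor. AhR is known in macrophages as a regulator of cytokine genes.

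Levels are given in TPM, each transcript's length-scaled share of its library, and can be compared between genes. The unit does not carry the number of reads, so depth is unknown here and no counting interval can be given. The columns summed to between 999895 and 1000145 TPM, and between 12498 and 13012 genes per column reached 1 TPM. For LPS (17950 genes) and for LPS + Ska (17658 genes), column 5 was midway between columns 6 and 7 wherever these were above 0, within 1e-05 TPM. No more than 2 values per gene are therefore independent in these groups, and an SD over their 3 columns does not come from 3 independent samples. The 2 values of each were recovered as column 5 plus and minus 0.5 times its distance to column 6, and are called the recovered values. How the columns were built is not given in the sources used here, so this recovery is an assumption. All 8 macrophage markers examined (Adgre1, Cd68, Csf1r, Lyz2, Itgam, Fcgr1, Cd14 and Spi1) were at 18.1 TPM or more in every column. Of 8 markers of other cell types, 6 were listed at 0 in all 9 columns and the others, Col1a1 and Col2a1, did not exceed 0.0337 TPM.

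The xenobiotic response element has the core GCGTG, and matches to it in the promoters of these genes are described here as letters only. RefSeq promoters (GRCm38.p6, the build mm10) were found for 6 of the 9 genes, Tiparp, Arnt, Cyp1a1, Ptges3, Ahrr and Cyp1b1. The core was searched on both strands in the 250 bases before the start. It was present in all 6, compared with 28.2% of the 32851 promoter windows of all genes. The genes were chosen by name as parts or targets of the AhR pathway, so nothing is read from this difference. The longer form TNGCGTG was present in Ahrr among these 6, compared with 4.1% of all windows. The windows of the 4 target or feedback genes follow, on the strand of the gene and 5′ to 3′, with the core in capitals, written CACGC where it lies on the other strand. They are chr9:57697363-57697612 (plus strand), chr17:79715062-79715311 (minus strand), chr3:65528197-65528409 (plus strand, shown up to the GENCODE start of the gene, without the last 37 bases) and chr13:74292332-74292581 (minus strand).
Cyp1a1: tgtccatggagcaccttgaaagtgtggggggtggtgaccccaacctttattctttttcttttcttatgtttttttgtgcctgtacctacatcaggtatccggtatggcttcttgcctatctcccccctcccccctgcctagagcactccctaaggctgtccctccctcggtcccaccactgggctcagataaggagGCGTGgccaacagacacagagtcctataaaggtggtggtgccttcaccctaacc
Cyp1b1: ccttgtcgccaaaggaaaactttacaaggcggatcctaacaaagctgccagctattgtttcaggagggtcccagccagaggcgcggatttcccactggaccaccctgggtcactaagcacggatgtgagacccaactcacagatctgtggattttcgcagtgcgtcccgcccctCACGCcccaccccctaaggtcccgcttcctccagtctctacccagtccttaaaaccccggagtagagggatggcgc
Tiparp: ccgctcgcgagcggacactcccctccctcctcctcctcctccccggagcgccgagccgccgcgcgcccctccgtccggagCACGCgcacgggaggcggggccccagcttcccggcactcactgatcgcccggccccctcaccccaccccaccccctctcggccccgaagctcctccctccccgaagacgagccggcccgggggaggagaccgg
Ahrr: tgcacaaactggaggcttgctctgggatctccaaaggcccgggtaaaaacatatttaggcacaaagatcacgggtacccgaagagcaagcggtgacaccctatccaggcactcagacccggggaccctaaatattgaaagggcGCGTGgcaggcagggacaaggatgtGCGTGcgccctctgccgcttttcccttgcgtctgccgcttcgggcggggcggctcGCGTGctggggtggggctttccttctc
A match is a description of the letters in a window and does not show that the receptor binds there. Ahrr held 3 cores, with first bases at -107, -82 and -27 from the RefSeq start, and each of the other windows held 1, at -54 in Cyp1a1, -76 in Cyp1b1 and -170 in Tiparp. The RefSeq start of Cyp1a1 lies inside the GENCODE span of the gene, and no GENCODE exon falls in the Cyp1a1, Cyp1b1 or Ahrr window. An exon of the antisense gene 4931440P22Rik covers the Tiparp window.

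Of the 9 genes, 6 were above 0 in every column and 3 were listed at 0 in every column. The receptor gene itself was barely detected, whereas its partner and chaperones were abundant. Ahr (ENSMUSG00000019256, chr12:35497974-35535038, minus strand, 11 exons in the longest transcript) had 0.150, 0.189 and 0.0834 TPM in DMSO, 0.0578, 0.0459 and 0.0697 TPM with LPS, and 0.240, 0.411 and 0.0689 TPM with LPS + Ska. No column reached 1 TPM, the LPS columns lay below the DMSO columns, and the LPS + Ska columns ran from within the LPS range to above the DMSO range. Its mean over the 9 columns was 0.146 TPM, above 31.7% of the 25181 genes that were listed above 0 in some column. Ahr therefore did not pass the filter for the fit, a mean of at least 1 TPM, which 12819 genes passed. In a fit without the filter the log2 fold change of TPM + 1 from LPS to LPS + Ska was 0.22 (95% interval 0.00 to 0.44, limma adjusted p = 0.16), and that from DMSO to LPS was -0.11 (95% interval -0.33 to 0.11, limma adjusted p = 0.41). The recovered values were 0.0519 and 0.0638 TPM with LPS and 0.325 and 0.154 TPM with LPS + Ska, so that both of the latter lay above both of the former. Recovered values of these groups did not overlap for 73.0% of all tested genes, so nothing is read from this separation.

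The genes most used to read out AhR activity were listed at 0 throughout. Cyp1a1 (ENSMUSG00000032315, chr9:57687928-57703824) and Cyp1b1 (ENSMUSG00000024087, chr17:79701537-79715061), which encode cytochrome P450 enzymes that oxidize the receptor's own ligands, were listed at 0 in all 9 columns. Aldh3a1 (ENSMUSG00000019102, chr11:61207537-61218421), an aldehyde dehydrogenase gene, was listed at 0 in all 9 as well. No fold change can be given for these 3 genes, with or without skatole. All 16 genes of common cell maintenance examined, among them Tbp with a lowest value of 11.1 TPM, were above 0 in every column. Without the depth, a 0 shows that no transcript was listed and sets no upper limit on the level.

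**Figure D1:**
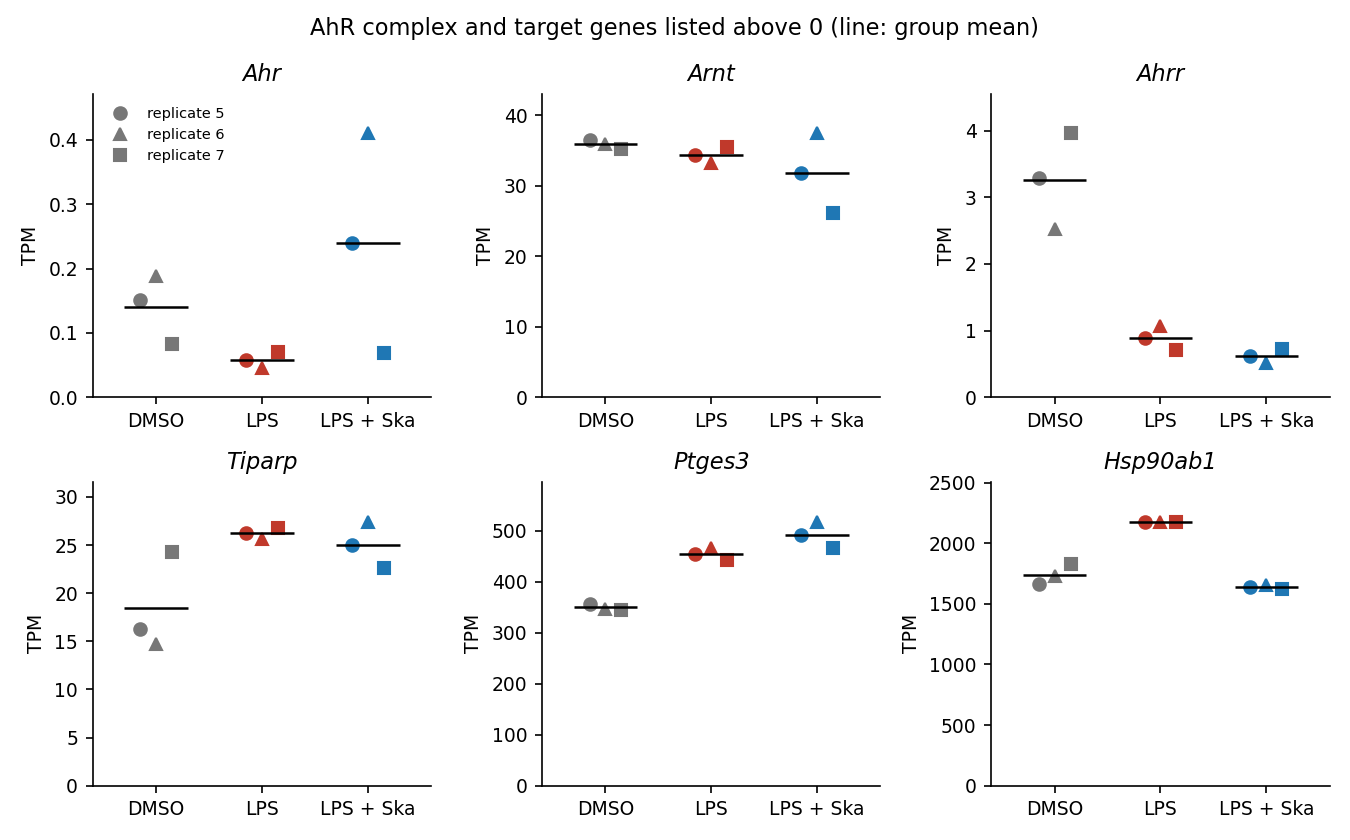
TPM of the 6 AhR genes listed above 0 (vertical axes from 0, a scale for each gene) in each column of DMSO, LPS and LPS + Ska, with a symbol for each replicate number and a line at the group mean. Ahr stays under 0.411 TPM, Ahrr is lower in both LPS groups than in DMSO, and Hsp90ab1 is higher with LPS than in either other group.

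**Figure D2:**
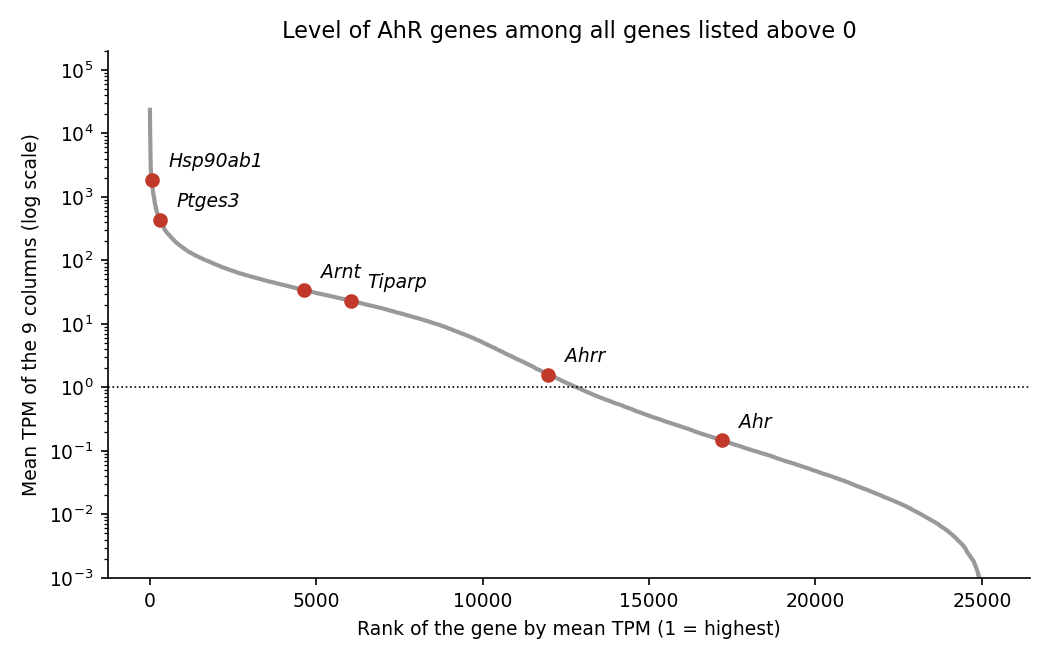
Genes listed above 0 in order of their mean TPM over the 9 columns (log scale, cut off below the lowest tick), with the AhR genes marked and a dotted line at 1 TPM, the filter of the fit. Hsp90ab1 and Ptges3 lie near the top, Arnt and Tiparp in between, Ahrr just above the line and Ahr below it.

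By mean level the order was Hsp90ab1 (1852 TPM), Ptges3 (432.6 TPM), Arnt (34.0 TPM), Tiparp (23.2 TPM), Ahrr (1.59 TPM) and Ahr (0.146 TPM). The columns of Arnt and Tiparp overlapped over the 9 columns, and so did no other neighbours in this order. The 5 genes above the filter were tested in a limma fit over all 12819 genes on log2(TPM + 1), and a gene was called at a Benjamini-Hochberg adjusted p below 0.05 with a fold change above 1.5 or below 0.67. For a gene with few TPM the added 1 makes the fold change smaller than that of the TPM. LPS compared with DMSO called 1 of the 5 lower and none higher, against 32.7% of all genes tested called in either direction, 20.0% called lower and 12.7% called higher. LPS + Ska compared with LPS called none of the 5, against 9.49% of all genes tested (3.35% higher and 6.14% lower), with 1 of the 5 at an unadjusted p below 0.05 (40.5% of all genes). LPS + Ska compared with DMSO called 1 of the 5 lower and none higher, against 36.7% of all genes called, 25.3% called lower and 11.4% called higher. By the adjusted p alone 4 of the 5 passed in LPS compared with DMSO (60.3% of all genes), 1 in LPS + Ska compared with LPS (28.6% of all genes) and 3 in LPS + Ska compared with DMSO (63.3% of all genes). Columns of the groups did not overlap for 4, 1 and 3 of the 5 in these comparisons, beside 68.9%, 51.2% and 64.8% of all genes. The recovered values did not overlap for 5, 3 and 4 of the 5, beside 73.8%, 73.0% and 72.1% of all genes. These comparisons share columns and are not independent of each other.

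Ahrr was the called gene. Its product is a bHLH-PAS protein without ligand-driven activity that competes with AhR for Arnt, and the gene is itself a target of AhR. Ahrr (ENSMUSG00000021575, chr13:74211118-74292331, minus strand) had 3.29, 2.52 and 3.96 TPM in DMSO, 0.890, 1.06 and 0.715 TPM with LPS, and 0.618, 0.509 and 0.728 TPM with LPS + Ska. Every DMSO column lay above every column of the other groups, and the LPS and LPS + Ska columns overlapped. The recovered values, 0.977 and 0.802 TPM with LPS and 0.564 and 0.673 TPM with LPS + Ska, did not overlap (limma adjusted p = 0.53). Ahrr fell from 3.26 ± 0.721 TPM (SD, n = 3) to 0.890 ± 0.174 TPM with LPS (SD, n = 3 columns). The log2 fold change was -1.16 (standard error 0.17, limma adjusted p = 0.00030). With LPS + Ska it was at 0.618 ± 0.109 TPM (SD, n = 3 columns), with a log2 fold change from DMSO of -1.38 (standard error 0.17, limma adjusted p = 8.7e-05). From LPS to LPS + Ska the log2 fold change was -0.22 (95% interval -0.60 to 0.16, limma adjusted p = 0.36), with the group mean on the side away from DMSO. Ahrr passed the filter through its DMSO columns, since both other group means were under 1 TPM. The call held without the filter, and with a pseudocount of 0.1 the log2 fold changes from DMSO were -1.76 with LPS and -2.21 with LPS + Ska.

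Tiparp was the only classical target of the list with a sizeable level. It encodes a mono-ADP-ribosyltransferase that AhR induces and that in turn restrains AhR. Tiparp (ENSMUSG00000034640, chr3:65528410-65555518, plus strand) had 16.3, 14.7 and 24.3 TPM in DMSO, 26.2, 25.7 and 26.8 TPM with LPS, and 25.0, 27.4 and 22.6 TPM with LPS + Ska. The LPS columns lay above the DMSO columns, and the LPS + Ska columns overlapped both other groups. The log2 fold change was 0.52 from DMSO to LPS (standard error 0.16, limma adjusted p = 0.018) and 0.45 from DMSO to LPS + Ska (standard error 0.16, limma adjusted p = 0.032), both inside the fold change limits. From LPS to LPS + Ska it was -0.07 (95% interval -0.43 to 0.29, limma adjusted p = 0.77). These comparisons with DMSO depended on the DMSO columns and on the scaling. Without DMSO replicate 7 the log2 fold changes were 0.72 (limma adjusted p = 0.00039) and 0.65 (limma adjusted p = 0.00057) and passed both limits, as they did after median-ratio scaling (0.60, limma adjusted p = 0.0058, and 0.62, limma adjusted p = 0.0044). Without DMSO replicate 5 or 6 the limma adjusted p was 0.063 or 0.065 for LPS and 0.10 or 0.12 for LPS + Ska, and with the recovered values the limma adjusted p of LPS + Ska compared with DMSO was 0.063. An antisense gene, 4931440P22Rik, overlaps Tiparp and reached 5.51 TPM, and whether the counting used strand is not given in the sources used here.

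Tested genes with a profile close to that of Tiparp were Trdmt1 and Cdyl. Their distances to Tiparp over the 9 columns of centred log2(TPM + 1) were 0.189 and 0.210, compared with a median of 1.27 over all tested genes. Trdmt1, an RNA methyltransferase gene, had group means of 6.63, 9.61 and 9.69 TPM in DMSO, LPS and LPS + Ska. Cdyl, which encodes a chromodomain protein, had group means of 12.8, 16.7 and 16.4 TPM in the same order. This likeness describes 9 columns, of which 6 are tied, and was not tested.

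Arnt was not called in any comparison. Arnt (ENSMUSG00000015522, chr3:95434388-95497240, plus strand), which encodes the partner that AhR shares with the hypoxia-inducible factors, had 36.5, 36.0 and 35.2 TPM in DMSO, 34.4, 33.2 and 35.5 TPM with LPS, and 31.8, 37.5 and 26.1 TPM with LPS + Ska. All 3 groups overlapped in these columns, whereas the recovered values, 33.8 and 34.9 TPM with LPS and 34.6 and 29.0 TPM with LPS + Ska, lay below DMSO. The log2 fold change was -0.06 from DMSO to LPS (95% interval -0.31 to 0.19, limma adjusted p = 0.65) and -0.12 from LPS to LPS + Ska (95% interval -0.37 to 0.13, limma adjusted p = 0.44). The group means of Arnt were 35.9 ± 0.638, 34.4 ± 1.19 and 31.8 ± 5.66 TPM (SD, n = 3 columns) in DMSO, LPS and LPS + Ska, beside a receptor gene under 1 TPM.

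The chaperone genes were abundant, and their log2 fold changes lay within the fold change limits, except for Ptges3 after median-ratio scaling. Hsp90ab1 (ENSMUSG00000023944, chr17:45567775-45573271, minus strand), the gene of the constitutive cytosolic Hsp90, had 1664, 1727 and 1826 TPM in DMSO, 2177, 2176 and 2178 TPM with LPS, and 1641, 1655 and 1626 TPM with LPS + Ska. No group overlapped another, and LPS was the highest. The log2 fold change was 0.33 from DMSO to LPS (standard error 0.05, limma adjusted p = 0.00028) and -0.41 from LPS to LPS + Ska (standard error 0.05, limma adjusted p = 0.00047). From DMSO to LPS + Ska the log2 fold change was -0.08 (95% interval -0.19 to 0.02, limma adjusted p = 0.15). Hsp90ab1 was the gene that passed the adjusted p in LPS + Ska compared with LPS, where 28.6% of all genes did so. The SD of the LPS columns was 0.973 TPM, beside 82.1 TPM in DMSO, and with the recovered values its limma adjusted p for LPS + Ska compared with LPS was 0.0053. Reads of Hsp90ab1 can be shared with its close relative Hsp90aa1 and with processed copies.

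Ptges3 (ENSMUSG00000071072, chr10:128058954-128077272, plus strand), the gene of the cochaperone p23 that stabilizes ligand-free AhR on Hsp90, had 356.6, 347.8 and 345.7 TPM in DMSO, 455.5, 467.2 and 443.9 TPM with LPS, and 492.3, 518.4 and 466.1 TPM with LPS + Ska. DMSO lay below both other groups, which overlapped by a narrow margin in the columns and not in the recovered values (461.4 and 449.7 TPM in LPS, 505.3 and 479.2 TPM in LPS + Ska, limma adjusted p = 0.21). The log2 fold change was 0.38 from DMSO to LPS (standard error 0.05, limma adjusted p = 0.00018) and 0.49 from DMSO to LPS + Ska (standard error 0.05, limma adjusted p = 3.1e-05). From LPS to LPS + Ska it was 0.11 (95% interval -0.00 to 0.23, limma adjusted p = 0.14). After median-ratio scaling it was 0.21 (limma adjusted p = 0.012), inside the fold change limits, and that from DMSO to LPS + Ska was 0.67 (limma adjusted p = 3.8e-06), which was called.

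**Figure D3:**
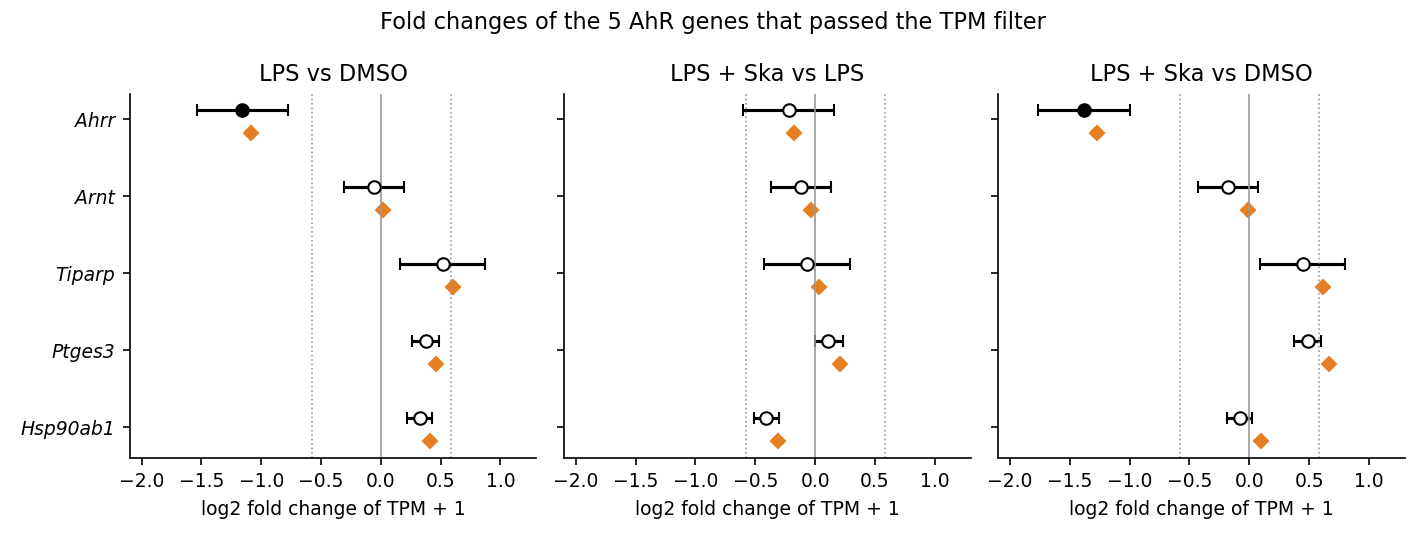
Log2 fold change of TPM + 1 (horizontal axis) of the 5 AhR genes that passed the filter, in the 3 comparisons, as circles with 95% intervals (filled where called), with orange diamonds for the values after median-ratio scaling and dotted lines at the fold change limits of 0.67 and 1.5. Ahrr is called lower in both comparisons with DMSO, and none of the 5 is called in LPS + Ska compared with LPS.

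Other genes of AhR chaperones and degradation were called with LPS and not between LPS and LPS + Ska, a difference that was not tested. Of 7 such genes, LPS compared with DMSO called 2 higher (12.7% of all genes) and 3 lower (20.0% of all genes), with a median log2 fold change of -0.57 against -0.07 over all genes tested. Hsp90aa1, the inducible Hsp90 gene, rose from 552 to 905 TPM (log2 fold change 0.71, limma adjusted p = 1.3e-05), and Cul4b, which encodes a ubiquitin ligase scaffold that can act with AhR, rose from 46.1 to 84.5 TPM (log2 fold change 0.86, limma adjusted p = 2.0e-05). Stub1, a ubiquitin ligase gene of the Hsp90 system, fell from 143 to 70.6 TPM (log2 fold change -1.01, limma adjusted p = 0.0024). Fkbp4, an immunophilin gene of the Hsp90 system, was called lower too, with a log2 fold change of -0.63 (limma adjusted p = 0.0021), which median-ratio scaling brought to -0.54, within the limits. In LPS + Ska compared with LPS limma called none of the 7, with 4 at an unadjusted p below 0.05 (40.5% of all genes). The log2 fold change of Hsp90aa1 in that comparison was 0.17 (95% interval 0.03 to 0.31), opposite in sign to that of Hsp90ab1.

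Of 12 bHLH-PAS relatives of AhR and Arnt, 5 were listed at 0 in every column, among them Arnt2, and 3 passed the filter. These 3 were Hif1a, the hypoxia-inducible factor subunit that also pairs with Arnt, and the clock genes Clock and Bmal1. LPS compared with DMSO called all 3 higher (12.7% of all genes), with log2 fold changes of 0.85 for Hif1a (limma adjusted p = 5.0e-05), 0.67 for Clock (limma adjusted p = 0.0049) and 0.62 for Bmal1 (limma adjusted p = 0.00064). The call of Clock was lost without DMSO replicate 6 (0.53), and that of Bmal1 without DMSO replicate 5 (0.55) and without LPS replicate 6 (0.56). The group means of Hif1a were 79.9, 145 and 156 TPM in DMSO, LPS and LPS + Ska, all above 1 TPM where those of Ahr were below. In LPS + Ska compared with LPS limma called none of the 3, with 1 at an unadjusted p below 0.05. Clock, at a log2 fold change of -0.48, was called lower there without LPS + Ska replicate 6 (-0.62, limma adjusted p = 0.014).

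Some further genes that AhR is known to induce differed between LPS and LPS + Ska, in both directions. Of 12 such genes, listed partly with their change already known (Nqo1 and Ugt1a6a), 2 were at 0 in every column and 6 passed the filter. LPS + Ska compared with LPS called 3 of these 6 higher (3.35% of all genes) and 1 lower (6.14% of all genes). As 2 of the 3 were listed with their change known, nothing is read from this count.

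Ugt1a6a, which encodes a glucuronosyltransferase, had 2.94, 4.50 and 3.38 TPM in DMSO, 1.21, 1.66 and 0.757 TPM with LPS, and 8.94, 8.61 and 9.26 TPM with LPS + Ska. No group overlapped another, and LPS + Ska was the highest. It fell with LPS (log2 fold change -1.07, limma adjusted p = 0.00067) and was higher with LPS + Ska than with LPS (log2 fold change 2.19, limma adjusted p = 7.7e-05) and than in DMSO (log2 fold change 1.12, limma adjusted p = 0.00044). Genes of the Ugt1a cluster share their last exons, and Ugt1a6b is a near copy at up to 0.936 TPM, so the division of reads among them is uncertain. Nqo1, a quinone reductase gene that is also known as a target of the oxidative stress factor Nrf2, had 3.09, 2.17 and 3.12 TPM in DMSO, 0.186, 0.413 and 0 TPM with LPS, and 3.002, 1.99 and 4.02 TPM with LPS + Ska. The LPS columns lay below both other groups, which overlapped. Nqo1 is among 4042 genes with LPS column 6 or 7 at 0 while LPS column 5 is above 0, so this 0 was not read as absence. Its log2 fold change was -1.67 from DMSO to LPS (limma adjusted p = 0.00018) and 1.72 from LPS to LPS + Ska (limma adjusted p = 0.00086). Xdh, the xanthine dehydrogenase gene, had 2.87, 3.84 and 4.33 TPM in DMSO, 0.444, 0.182 and 0.705 TPM with LPS, and 1.36, 1.13 and 1.60 TPM with LPS + Ska. It fell with LPS (log2 fold change -1.70, limma adjusted p = 5.9e-05) and was called higher with LPS + Ska than with LPS (log2 fold change 0.72, limma adjusted p = 0.021), a call that was lost in 5 alternatives, namely the recovered values (limma adjusted p = 0.061) and leaving out LPS replicate 5 or 6 or LPS + Ska replicate 5 or 7 (limma adjusted p from 0.059 to 0.079).

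Scin, which encodes the actin-severing protein scinderin, went the other way. It had 0, 0.0843 and 0.211 TPM in DMSO, 43.2, 41.8 and 44.6 TPM with LPS, and 8.34, 8.36 and 8.32 TPM with LPS + Ska. The groups lay far apart, with LPS the highest. Scin rose with LPS (log2 fold change 5.33, limma adjusted p = 1.7e-09), and with LPS + Ska it was lower than with LPS (log2 fold change -2.24, limma adjusted p = 3.0e-06) and still above DMSO (log2 fold change 3.09, limma adjusted p = 6.1e-08). Serpinb2, the gene of a plasminogen activator inhibitor, was listed at 0 in each DMSO column. It was at 7.33 to 10.9 TPM with LPS and at 7.31 to 9.30 TPM with LPS + Ska, and these 2 groups overlapped. Scin (DMSO mean 0.0985 TPM) and Serpinb2 passed the filter through their LPS groups. Their calls from DMSO to LPS held without that filter. Nfe2l2, the gene of Nrf2, had a log2 fold change of 0.04 from LPS to LPS + Ska (95% interval -0.10 to 0.18, limma adjusted p = 0.67). Among these further genes, 1 of the 9 with a RefSeq promoter, Scin, held the core in its window (28.2% of all windows), and Ugt1a6a and Nqo1 did not.

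**Figure D4:**
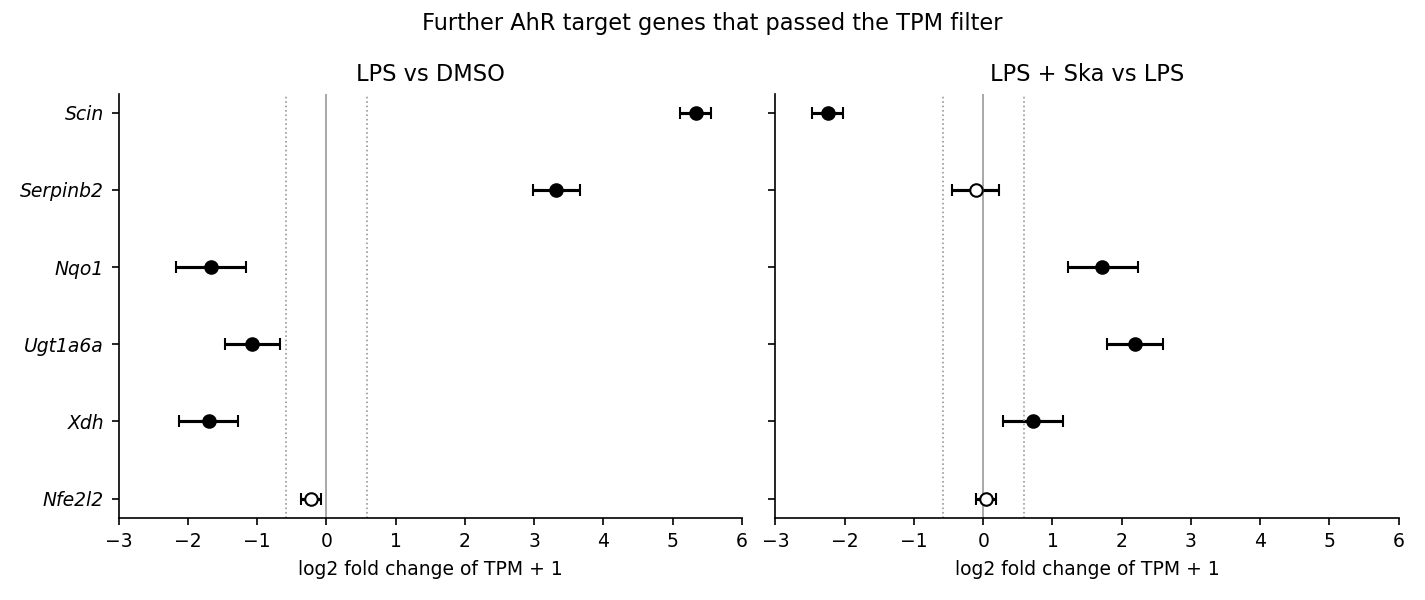
Log2 fold change of TPM + 1 (horizontal axis) of the 6 further AhR target genes that passed the filter, with 95% intervals, filled where called, in LPS compared with DMSO and in LPS + Ska compared with LPS, with dotted lines at the fold change limits. Nqo1, Ugt1a6a and Xdh are lower with LPS and higher again with LPS + Ska, Scin moves in the opposite order, and Serpinb2 and Nfe2l2 are not called between LPS and LPS + Ska. The DMSO columns of Serpinb2 are listed at 0, so its fold change there depends on the added 1 and is no bound.

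Coactivators, corepressors and other partners of AhR were all above the filter. Of these 14 genes, LPS compared with DMSO called 3 lower, Rela, Klf6 and Ncoa2, and none higher, a share near the 20.0% lower of all genes. Rela, the NF-kB subunit gene, had a log2 fold change of -0.68 (limma adjusted p = 8.4e-06), and the calls of Klf6 and Ncoa2 were lost in 3 and 6 alternatives. LPS + Ska compared with LPS called 1 lower (6.14% of all genes) and none higher, a share near that of all genes. The median log2 fold change was -0.33 against -0.10 over all genes tested, and -0.23 after median-ratio scaling. By the adjusted p alone 9 of the 14 passed, compared with 28.6% of all genes, and why was not tested. Relb, which encodes an NF-kB subunit known to pair with AhR, had a log2 fold change of -0.53 (limma adjusted p = 0.0026), inside the fold change limit.

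The comparison of LPS + Ska with DMSO shares its columns with the other comparisons, and 11.4% of all genes were called higher and 25.3% lower. Here limma called 2 higher and 3 lower of the 7 chaperone and degradation genes and 1 higher of the 3 tested bHLH-PAS relatives. Of the 6 tested further targets, limma called 3 higher and 1 lower. As Nqo1 and Ugt1a6a were listed with their change known, nothing is read from that count. Of the 14 coregulators and partners, limma called 5 lower, among them Ncoa1, Ncoa3, Rela and Smarca4, and 3 after median-ratio scaling. Xdh was the further target that was lower than in DMSO with skatole (log2 fold change -0.98, limma adjusted p = 0.0015).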

How the data were processed

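RNA of RAW264.7 macrophages in 3 groups of 3 samples was sequenced by the authors, who deposited TPM for 55401 Ensembl genes, of which 55141 matched a symbol. Per the labels, the processing notes name fastp 0.20.1, HISAT2 2.2.1, StringTie 2.0 and the build mm10. The annotation is not given in the sources used here. Coordinates came from GENCODE M21 (GRCm38) and promoters from RefSeq. Genes averaging 1 TPM or more (12819) entered a limma fit (version 3.58.1, R 4.3.3, lmFit and a trended eBayes) of log2(TPM + 1) over all 9 columns. The code was also run on simulated data, and nothing is read from that about the p-values here. Since the LPS and LPS + Ska columns are tied, the fit was repeated on recovered values. It was also repeated with the pseudocount at 0.1, without the filter, with the filter at 5 TPM, after median-ratio scaling, on the compared groups alone, without the trend, with a replicate block, with calls by the adjusted p alone and with each column left out. The genes, lists and alternatives were chosen with earlier results of these data known. The text names the 9 genes, list genes called in at least 1 comparison and genes among the 3 closest to Tiparp, and some of these are not reported here. Uncalled list genes were chosen after their values were seen. Depth is unknown, so precision rests on the spread of the columns. Figures were drawn with matplotlib 3.10.9.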

Additional observations from a re-analysis of the deposited data

How the results depend on the processing

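Ahrr was called lower than in DMSO, with LPS and with LPS + Ska, under every alternative that tested it. A mean TPM of at least 5 removed Ahrr and left 0 of the 9 genes called in each of these comparisons. Median-ratio scaling called 2 in LPS compared with DMSO (Ahrr and Tiparp) and 3 in LPS + Ska compared with DMSO (also Ptges3). The adjusted p alone called 4 and 3 of them, and 1 (Hsp90ab1) in LPS + Ska compared with LPS, and it raised the calls over all genes to 7734, 8116 and 3663. With each column left out in turn, between 1 and 2 were called in each comparison with DMSO, the second being Tiparp without DMSO replicate 7, and 0 in LPS + Ska compared with LPS. The sign turned for Arnt from DMSO to LPS (0.02 after median-ratio scaling) and from LPS to LPS + Ska (-0.24 to 0.01 with each column left out in turn, the highest without LPS + Ska replicate 7), for Tiparp from LPS to LPS + Ska (0.03 after median-ratio scaling) and for Hsp90ab1 from DMSO to LPS + Ska (0.10 after median-ratio scaling). None of these was called, and the cause was not tested. Median-ratio scaling moved the median log2 fold change of all genes from -0.18 to -0.01 in LPS + Ska compared with DMSO, where Ahrr was then at -1.27, Tiparp at 0.62 and Ptges3 at 0.67. The share of calls that were higher moved from 31.0% to 48.4% there and from 35.3% to 52.0% in LPS + Ska compared with LPS.

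With a replicate block the log2 fold change of Ahrr from DMSO to LPS was -1.16 (limma adjusted p = 0.0012), and 1, 0 and 1 of the 9 genes were called in LPS compared with DMSO, LPS + Ska compared with LPS and LPS + Ska compared with DMSO, as without the block. Deviations of same-numbered columns correlated at 0.38, 0.15 and 0.13 across genes between LPS and LPS + Ska, whose columns are tied in the same form, and at -0.032 to 0.080 between DMSO and either other group, so shared numbers were not read as pairs. Unknown depth and levels under 1 TPM limit what can be said of Ahr and Ahrr, and p-values from tied columns count 2 independent values as 3.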

Other observations

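Genes of tryptophan metabolism and transport, some of which make or carry AhR ligands, were mostly low. Of 14 such genes, 4 (Ido2, Kynu, Haao and Tph1) were listed at 0 in every column and 5 passed the filter. Ido1, which starts the kynurenine route, was listed at 0 in all DMSO and LPS + Ska columns and at 0.101, 0.303 and 0 TPM with LPS. Like Nqo1, it is among the 4042 genes with LPS column 6 or 7 at 0 while LPS column 5 is above 0. Its 0 with LPS was therefore not read as absence, nor its LPS columns as independent values. Il4i1, an amino acid oxidase gene, stayed at or under 0.544 TPM. LPS compared with DMSO, where 12.7% of all genes were called higher and 20.0% lower, called Kyat3, a kynurenine aminotransferase gene, higher (log2 fold change 0.93, limma adjusted p = 0.019) and Afmid, the kynurenine formamidase gene, lower (log2 fold change -0.81, limma adjusted p = 0.018). These calls were each lost in 4 alternatives. The tryptophan and kynurenine transporter gene Slc7a5 was abundant, at 110.3, 110.7 and 128 TPM in DMSO, 169.7, 168.0 and 171 TPM with LPS and 163, 176 and 151 TPM with LPS + Ska. Both LPS groups lay above DMSO and overlapped each other, with a log2 fold change of 0.54 from DMSO to LPS (limma adjusted p = 0.00022), inside the fold change limits. It was called after median-ratio scaling (0.63, limma adjusted p = 2.0e-05) and without DMSO replicate 7 (0.61, limma adjusted p = 0.00017). In LPS + Ska compared with LPS limma called none of the 5, with 1 at an unadjusted p below 0.05 (40.5% of all genes).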
